A study of Mus musculus with 12 samples.

Results

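The Sm proteins are the proteins that the SMN complex loads onto spliceosomal small nuclear RNAs (snRNAs), and the Gemins are partners of SMN within that complex. Footprints on 10 genes were read from a table of 10481 genes. The 10 were listed by their identifiers, though with earlier results of these data known. They are the 7 Sm genes Snrpb (ENSMUSG00000027404), Snrpd1 (ENSMUSG00000002477), Snrpd2 (ENSMUSG00000040824), Snrpd3 (ENSMUSG00000020180), Snrpe (ENSMUSG00000090553), Snrpf (ENSMUSG00000020018) and Snrpg (ENSMUSG00000057278). The 3 Gemin genes are Gemin2 (ENSMUSG00000060121), Gemin5 (ENSMUSG00000037275) and Ddx20 (ENSMUSG00000027905), which encodes Gemin3. All 10 were in the table, so none was lost to the expression filter of the study. Ribosome profiling sequences the stretches of mRNA that ribosomes shield from RNase, so a count of footprints follows both the amount of an mRNA and its load of ribosomes. Footprints were not divided by mRNA level here, and fewer cells of a type cannot be told apart from fewer footprints per cell.

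The libraries came from Taiwanese mouse embryos at embryonic day 14.5, a severe model of spinal muscular atrophy (SMA) in which human SMN2 transgenes supply SMN protein. Control embryos were Smn+/-; SMN2tg/0 and SMA embryos were Smn-/-; SMN2tg/0, so the controls also carried a single intact mouse Smn allele and the same hemizygous human transgene. Brain and spinal cord were collected, with 3 libraries in each of the 4 groups and 12 in all, which the study describes as biological replicates. By the legend of the profiling experiment there were 3 embryos of each genotype, and whether embryos shared a litter is not given in the labels. With 3 libraries of each tissue per genotype, those 3 embryos would each have given both tissues if the legend counts all embryos profiled. The labels do not say which brain and spinal cord libraries came from the same embryo. The main tissue tests treated the libraries as independent, so their p-values take no account of such a pairing. Smn1, the targeted gene, could not be paired with an identifier and was not analysed here, and neither were Gemin4, Gemin6, Gemin7, Gemin8 and Strap.

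In a cell, 7 Sm proteins close into a ring around a short site on the U1, U2, U4 and U5 snRNAs, and without that ring the snRNA is not imported into the nucleus as a working splicing particle. Some Sm proteins are first methylated by a complex that contains Wdr77. Gemin2 then grips a horseshoe of SmD1, SmD2, SmE, SmF and SmG, Gemin5 picks out the snRNA, and the DEAD-box helicase Gemin3 binds SMN directly. SMN brings these parts together, and shortage of SMN is the cause of SMA.

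Total counts ran from 3683842 to 9117017 for brain libraries and from 5162190 to 12793955 for spinal cord libraries, and the 10 genes took between 0.0591% and 0.1014% of each total. The Hox genes Hoxc6, Hoxc8 and Hoxc10, which mark the spinal cord, lay between 0 and 0.928 normalized CPM, the count scaled to a common library total with TMM factors, in the brain libraries and between 35.1 and 107 CPM in the spinal cord libraries. Control spinal cord library 1 stood apart, with 160.4 CPM of Top2a, a gene of dividing cells, against 21.6 to 40.7 CPM in the other spinal cord libraries. Values of the Gemin genes and of the markers that it moved most are also given without it.

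The Sm genes carried far more footprints than the Gemin genes in each group. Per kilobase of the deposited gene length, the 7 Sm genes of control brain lay between 31.7 and 122 CPM per kilobase on average, and the 3 Gemin genes lay between 3.66 and 4.82. Snrpg, the gene of SmG, had the highest level per length in all 4 groups, at 122 ± 19.7 in brain and 70.2 ± 7.10 in spinal cord of controls, and 131 ± 3.59 and 75.8 ± 7.95 in the same tissues of SMA embryos (mean CPM per kilobase ± SD, n = 3). Its 3 values did not overlap those of the gene next in order in any group. Snrpd2 had the lowest level per length among the Sm genes, at 31.7 ± 4.08 in control brain and 21.9 ± 2.60 in control spinal cord.

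Several neighbors in the order could not be told apart. In control brain the order by level per length was Snrpg, Snrpb, Snrpd1, Snrpe, Snrpf, Snrpd3 and Snrpd2, and Snrpd1, Snrpe and Snrpf overlapped in turn between 56.0 and 80.9 CPM per kilobase. In control spinal cord Snrpe stood second, at 52.0 ± 2.38, and overlapped Snrpb at 50.4 ± 4.82. Against all 10481 genes ranked by level per length, the Sm genes stood between percentiles 62.8 and 95.2 over the 4 groups. The Gemin genes stood between percentiles 9.08 and 14.2, and neighbors among them overlapped in each group except that Gemin2 lay below Gemin5 in SMA brain. Snrpn encodes a protein almost the same as that of Snrpb, and processed copies of Sm genes exist in the genome. Reads with several alignments were kept in making the table, so how footprints were divided among such copies is uncertain. The deposited length is also below the length of a footprint for 33 genes of the table, none of them among the 10, which limits levels per length.

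**Figure D1:**
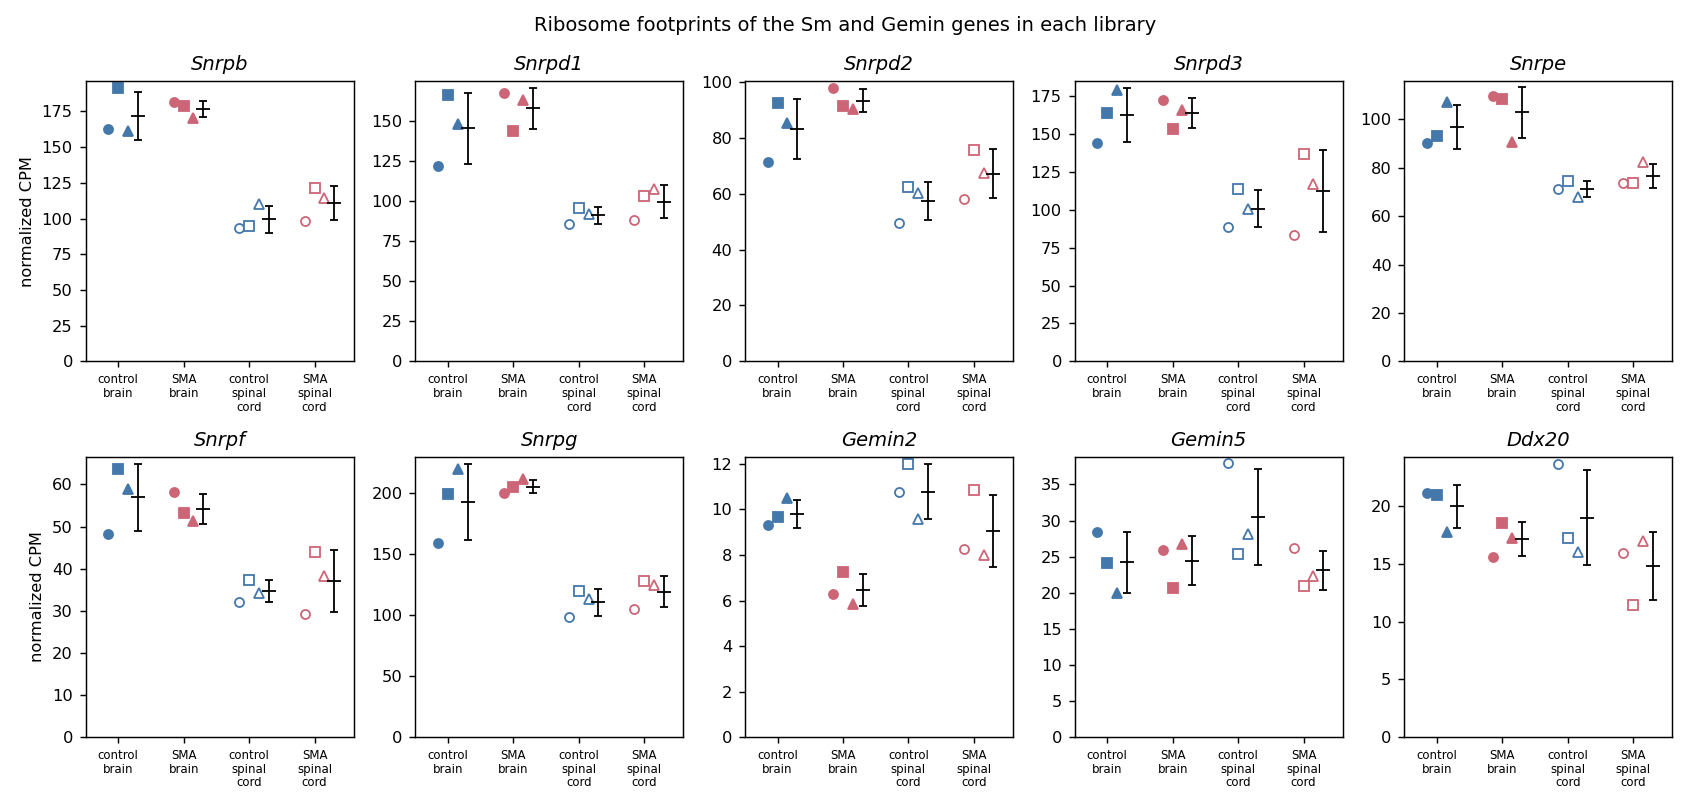
Normalized CPM of each of the 10 genes (y axis, linear from 0) in control and SMA brain and spinal cord (x axis), where each point is a library, circles, squares and triangles are replicates 1, 2 and 3, and the black mark and bar are the mean and SD of 3 libraries. All 7 Sm genes sit lower in spinal cord than in brain, and Gemin2 sits at 5.86 to 7.24 CPM in SMA brain against 9.30 to 10.5 CPM in control brain.

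Since the Sm genes moved together between tissues, as described below, the stretch of DNA just upstream of them is shown. The RefSeq promoter table (GRCm38.p6) held entries for 8 of the 10 genes, all but Snrpb and Snrpd1. The last 100 bases before the transcription start are printed 5′ to 3′ on the strand of the gene, for the 5 Sm genes and for Gemin2. The start is the one used by the promoter table, which for Snrpd2 lies 393 bases inside the RefSeq gene span and for the other 5 genes is the upstream end of that span. Capitals mark matches to 3 of the motifs searched, on either strand. The first is the CCAAT box, which appears as ATTGG when it lies on the opposite strand. The next is CGGAAG, which then appears as CTTCCG, and the last is the GC box GGGCGGG, which then appears as CCCGCCC.
Snrpd2, chr7:19149738-19149837, plus strand: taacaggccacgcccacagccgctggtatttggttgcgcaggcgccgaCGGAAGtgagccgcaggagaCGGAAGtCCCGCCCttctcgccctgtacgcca
Snrpd3, chr10:75517942-75518041, plus strand: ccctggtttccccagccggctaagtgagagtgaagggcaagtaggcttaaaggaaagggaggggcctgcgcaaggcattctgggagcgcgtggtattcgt
Snrpe, chr1:133610281-133610380, minus strand: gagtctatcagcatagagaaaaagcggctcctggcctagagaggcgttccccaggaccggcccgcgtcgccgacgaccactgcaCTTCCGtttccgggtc
Snrpf, chr10:93589659-93589758, minus strand: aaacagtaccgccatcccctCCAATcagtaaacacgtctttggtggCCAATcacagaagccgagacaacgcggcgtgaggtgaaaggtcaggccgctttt
Snrpg, chr6:86371440-86371539, plus strand: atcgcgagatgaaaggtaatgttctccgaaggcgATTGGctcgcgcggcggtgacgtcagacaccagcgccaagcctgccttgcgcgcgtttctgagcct
Gemin2, chr12:59013291-59013390, plus strand: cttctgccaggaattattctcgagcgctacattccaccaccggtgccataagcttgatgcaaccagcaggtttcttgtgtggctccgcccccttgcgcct

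Over the 250 bases before the start, CCAAT was found at Snrpd3, Snrpf and Snrpg, and 33.8% of the 32851 promoter windows in the table hold it. CGGAAG, a core read by ETS factors, was found at Snrpd2, Snrpe and Snrpg, against 13.6% of all windows. GGGCGGG was found at Snrpd2, Snrpd3 and Gemin5, against 23.4%. Neither CACGTG, held by 6.02% of all windows, nor TATAAA, held by 12.4%, was found at any of the 8 genes. A match is a description of the sequence only, and no single motif was shared by all 5 Sm genes searched.

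In brain, SMA was compared with control to ask whether loss of SMN went with a change in footprints on the proteins it assembles. Footprints on Gemin2, the partner of SMN that holds the Sm horseshoe, were lower in SMA brain. Gemin2 had 9.30, 9.67 and 10.5 CPM in control brain libraries 1, 2 and 3 and 6.29, 7.24 and 5.86 CPM in SMA brain libraries 1, 2 and 3. The lowest control library therefore lay above the highest SMA library. These levels rest on 43 to 85 raw counts in a control library and 21 to 39 in an SMA library. Gemin2 averaged 9.82 ± 0.610 CPM in control and 6.46 ± 0.706 CPM in SMA brain (SD, n = 3), and its log2 fold change of SMA over control was -0.56 (SE 0.21, 95% interval -1.01 to -0.11).

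In edgeR's quasi-likelihood test, fitted and adjusted across the whole table, Gemin2 had an unadjusted p of 0.0179 and an adjusted p of 0.902. It met the unadjusted threshold of the study, as did 5.05% of all genes in brain (3.28% with lower and 1.77% with higher footprints), and no gene met an adjusted p below 0.05 (0%). It also met the fold change thresholds of 0.3 and 0.5 of the study, which 3.76% and 1.53% of all genes met together with the unadjusted p, and 7.18% of all genes were lower without overlap. With DESeq2 the unadjusted p was 0.104, and without SMA brain library 3 it was 0.0537 at a log2 fold change of -0.50, so the call did not hold in either case.

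No other member passed in brain, and the Sm genes stayed close to their control levels. Of the 7 Sm genes, 6 had a positive log2 fold change, from 0.03 for Snrpd3 to 0.19 for Snrpd2, and Snrpf had -0.04. Their median was 0.11, against 0.00 over all genes, and 0 of 7 met an unadjusted p below 0.05 with edgeR or with DESeq2. The median was 0.0096 without control brain library 1 and at most 0.16 without any other library. Snrpd2, which pairs with SmD1 in the horseshoe, had 71.4, 92.5 and 85.1 CPM in control brain and 97.9, 91.3 and 90.4 CPM in SMA brain. Its groups overlapped, since control library 2 lay above 2 of the SMA libraries, and its interval ran from -0.07 to 0.45. Without control brain library 2, Snrpd2 had an unadjusted p of 0.048. The intervals of the other Sm genes reached at most 0.405 upward (Snrpd1) and -0.34 downward (Snrpf), so larger differences in either direction lie outside them.

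Gemin5 and Ddx20 overlapped between genotypes in brain. Gemin5, which reads the snRNA, had 28.4, 24.2 and 20.0 CPM in control brain and 26.0, 20.6 and 26.8 CPM in SMA brain. Its log2 fold change was 0.00, with an interval from -0.36 to 0.37. Ddx20 had 21.1, 21.0 and 17.8 CPM in control brain and 15.6, 18.6 and 17.3 CPM in SMA brain. That is a log2 fold change of -0.20 (interval -0.54 to 0.13), and a single SMA library lay above the lowest control library.

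Beside these values, the 4 named markers of progenitors and cycling cells (Nes, Top2a, Kif11 and Cdk1) were all lower in SMA brain. Of 10 listed markers of this kind, only these 4 could be paired with an identifier, so the others were not read. Their median log2 fold change was -0.18, and 1 of 4, Nes, had an unadjusted p below 0.05. Of all genes, 3.28% were lower in brain at that threshold. In SMA spinal cord the median of the 4 was -0.88, with 1 of 4, again Nes, past that threshold, against 3.26% of all genes that were lower. Without control spinal cord library 1 the spinal cord median was -0.16, with Nes at -0.40, Top2a at -0.06 and Kif11 at -0.11. The part of these markers in the values of the 10 genes was not tested.

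In spinal cord, where motor neurons are lost in SMA, the same comparison called none of the 10 genes. All 7 Sm genes were slightly higher in SMA and all 3 Gemin genes were lower, but each interval held 0. The Sm log2 fold changes lay between 0.08 for Snrpf and 0.21 for Snrpd2, with a median of 0.12 against -0.01 over all genes, and leaving out each library in turn gave medians from 0.070 without SMA library 3 to 0.23 without SMA library 1. With edgeR, 0 of 7 Sm genes and 0 of 3 Gemin genes met an unadjusted p below 0.05, DESeq2 gave the same counts, and 6.99% of all genes met it with edgeR (3.26% with lower footprints, and 0% at an adjusted p below 0.05).

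Among the Gemin genes Gemin5 had the lowest p in spinal cord. Its level was 37.9, 25.3 and 28.1 CPM in control and 26.2, 21.0 and 22.3 CPM in SMA libraries 1, 2 and 3. SMA library 1 lay above control library 2, so the groups overlapped. The log2 fold change was -0.41 (SE 0.18, interval -0.84 to 0.03), with an unadjusted p of 0.0618 and an adjusted p of 0.684. The value leaned on control spinal cord library 1, the library with high Top2a: without it the log2 fold change was -0.21 with an unadjusted p of 0.204, and without both spinal cord libraries numbered 1 it was -0.32 with an unadjusted p of 0.0517. In the other direction, the p fell to 0.0316 without control spinal cord library 2.

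Gemin2 and Ddx20 also overlapped in spinal cord. Gemin2 had 10.8, 12.01 and 9.57 CPM in control and 8.27, 10.9 and 8.02 CPM in SMA, a log2 fold change of -0.27 (interval -0.72 to 0.18). Ddx20 had 23.7, 17.3 and 16.0 CPM in control and 15.9, 11.5 and 17.0 CPM in SMA, a log2 fold change of -0.37 (interval -0.89 to 0.15). Without control spinal cord library 1 the value for Ddx20 was -0.17.

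**Figure D2:**
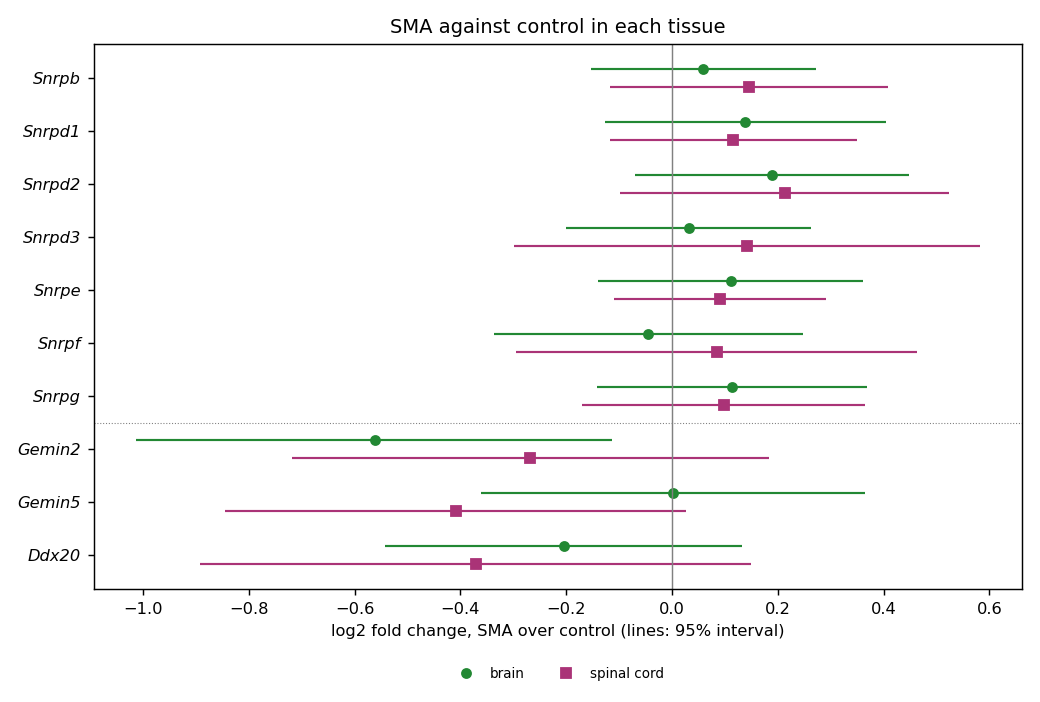
Log2 fold change of SMA over control (x axis) for each of the 10 genes (y axis), with circles for brain, squares for spinal cord and lines for the 95% interval. Gemin2 in brain, at -0.56, has the only interval that does not reach 0, and the Sm genes lie between -0.04 and 0.21.

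An interaction term in a fit of all 12 libraries asked whether the effect of SMA differed between brain and spinal cord. None of the 10 genes had an unadjusted p below 0.05 with edgeR or with DESeq2, against 2.38% of all genes with edgeR. For Gemin2 the log2 fold change of SMA was 0.33 higher in spinal cord than in brain (SE 0.25, interval -0.22 to 0.89), with an unadjusted p of 0.235. For Gemin5 it was -0.39 (SE 0.26, interval -0.96 to 0.17), with an unadjusted p of 0.158, and without control spinal cord library 1 it was -0.20 with an unadjusted p of 0.412. The passing value of Gemin2 in brain is therefore not shown to be particular to brain.

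The clearest difference among the Sm genes was between tissues. All 7 were lower in spinal cord than in brain, in control and in SMA libraries alike, and within a genotype the groups overlapped for none of them. The control log2 fold changes lay between -0.43 for Snrpe and -0.79 for Snrpg, with a median of -0.67 against 0.01 over all genes. In SMA libraries they lay between -0.42 and -0.78, again for Snrpe and Snrpg, with a median of -0.55 against 0.03. At an adjusted p below 0.05, 7 of 7 Sm genes were lower in control and 7 of 7 in SMA, against 18.1% and 17.2% of all genes that were lower. Groups were lower without overlap for 27.3% of all genes in control and 25.8% in SMA. The control and SMA comparisons share no library.

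Snrpg differed most between tissues in both genotypes. It had 159, 199 and 219 CPM in control brain and 97.9, 119.6 and 113 CPM in control spinal cord. In SMA it had 199.6, 204 and 211 CPM in brain and 105, 128 and 125 CPM in spinal cord. The highest spinal cord library of Snrpg, at 128 CPM, lay below its lowest brain library, at 159 CPM. The log2 fold change was -0.79 in control (SE 0.14, adjusted p = 0.00435) and -0.78 in SMA (SE 0.10, adjusted p = 0.000704).

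Snrpb, the gene of SmB and its splice form SmB′, which sits outside the horseshoe with SmD3, showed a difference of like size. Its level was 163, 191 and 162 CPM in control brain and 93.6, 94.5 and 110.5 CPM in control spinal cord. In SMA it was 181, 179 and 171 CPM in brain and 98.0, 121 and 114 CPM in spinal cord. Control and SMA libraries of one tissue interleaved, while brain and spinal cord were separate. The log2 fold change was -0.78 in control (SE 0.11, adjusted p = 0.00169) and -0.66 in SMA (SE 0.10, adjusted p = 0.00171).

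Snrpd3, the partner in that outer pair, was more variable in spinal cord. It had 144, 164 and 179 CPM in control brain and 88.6, 113 and 100.5 CPM in control spinal cord. In SMA it had 173, 153 and 166 CPM in brain and 83.2, 137 and 117 CPM in spinal cord, so that SMA spinal cord library 2, at 137 CPM, stood nearest to the lowest SMA brain library. The log2 fold change was -0.67 in control (adjusted p = 0.00552) and -0.54 in SMA (adjusted p = 0.0374).

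Snrpe showed the smallest tissue difference. It had 90.1, 93.3 and 107 CPM in control brain and 71.4, 74.5 and 67.9 CPM in control spinal cord. In SMA it had 109.6, 108.6 and 90.6 CPM in brain and 73.7, 73.8 and 82.3 CPM in spinal cord. The tissues were separate in both genotypes, and the log2 fold change was -0.43 in control (SE 0.11, adjusted p = 0.0153) and -0.42 in SMA (SE 0.11, adjusted p = 0.0181).

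Snrpd1, Snrpd2 and Snrpf, which belong to the horseshoe held by Gemin2, lay between these. Snrpd1 ranged from 122 to 167 CPM over the 6 brain libraries and from 85.4 to 108 CPM over the 6 spinal cord libraries. Snrpd2 ranged from 71.4 to 97.9 CPM in brain and from 49.6 to 75.7 CPM in spinal cord, and Snrpf ranged from 48.2 to 63.7 and from 29.2 to 43.9 CPM. For Snrpd2 alone of these genes the ranges met across genotypes, since SMA spinal cord library 2 lay above control brain library 1. Within a genotype, their log2 fold changes were -0.66, -0.52 and -0.70 in control and -0.66, -0.47 and -0.55 in SMA, in the order named.

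None of the 3 Gemin genes was called between tissues, and whether they differed from the Sm genes in this was not tested. With edgeR, 0 of 3 met an adjusted p below 0.05 in either genotype, 0 of 3 met an unadjusted p below 0.05, and DESeq2 called none at an adjusted p below 0.05. In control libraries the log2 fold changes of spinal cord over brain were 0.15 for Gemin2 (interval -0.23 to 0.54), 0.34 for Gemin5 (interval -0.10 to 0.77) and -0.06 for Ddx20 (interval -0.48 to 0.35). In SMA libraries they were 0.48 for Gemin2 (interval -0.03 to 1.00), -0.06 for Gemin5 (interval -0.43 to 0.31) and -0.20 for Ddx20 (interval -0.64 to 0.24). The intervals of Ddx20 reach past the value of Snrpe in both genotypes. Without control spinal cord library 1 the control values were 0.14 for Gemin5 and -0.26 for Ddx20, and with library total as a covariate, as described below, Ddx20 was -0.40 in control and -0.42 in SMA. The SMA value of Gemin2 had non-overlapping groups, as 26% of all genes did in the higher direction, and an unadjusted p of 0.0609.

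Within each genotype, the summed Sm level per unit of Gemin level was lower in spinal cord. In controls the 7 Sm genes summed to 908 ± 96.9 CPM in brain and 565 ± 41.2 in spinal cord, and in SMA to 954 ± 28.6 and 623 ± 77.7. The 3 Gemin genes summed to 54.0 ± 5.33 and 60.2 ± 10.5 CPM in controls and 48.1 ± 1.77 and 47.0 ± 3.53 in SMA (SD, n = 3). The ratio of the sums was 13.5, 17.7 and 19.8 in control brain and 20.6, 20.1 and 18.9 in SMA brain. It was 7.16, 10.9 and 10.8 in control spinal cord and 10.6, 15.8 and 13.8 in SMA spinal cord. The genotypes overlapped in brain, and in spinal cord SMA library 1 lay below 2 of the control libraries. Across genotypes the tissues overlapped, since control brain library 1, at 13.5, lay below SMA spinal cord libraries 2 and 3. The lowest ratio fell in the deepest library of control brain, control spinal cord and SMA spinal cord, but not of SMA brain. The ratios take no account of library total, which is described below. These ratios are of counts on genes of unequal length and are compared only between libraries.

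**Figure D3:**
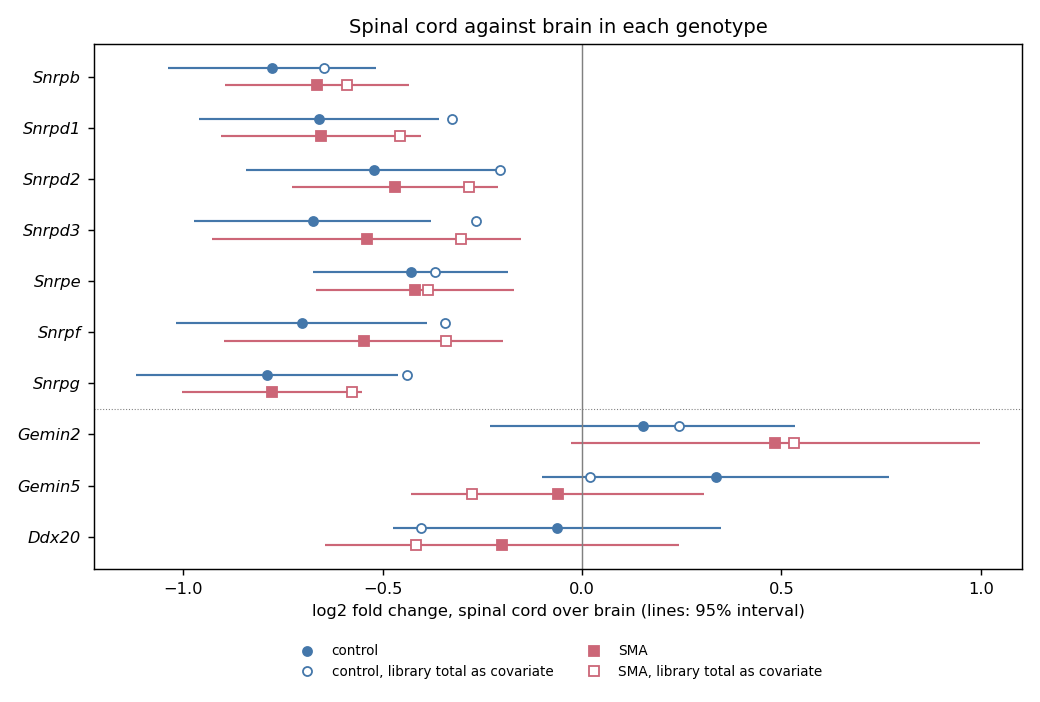
Log2 fold change of spinal cord over brain (x axis) for each of the 10 genes (y axis) in control (blue circles) and SMA libraries (red squares), with lines for the 95% interval. Open symbols give the same value with library total as a covariate over all 12 libraries, which moves the Sm genes toward 0, to between -0.21 and -0.65 in control.

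Library total moved with the tissue and with the Sm genes, and the tissue difference is smaller when it is taken into account. Spinal cord libraries were deeper than brain libraries in control, at 10315064 counts or more against 9117017 or fewer. Within a group, normalized Sm levels were on balance lower in deeper libraries, and the deepest library of each group had the lowest Sm sum. The slope of log2 level on log2 total was negative for 7 of 7 Sm genes, with a median of -0.35 per doubling of the total against 0.05 over all genes, where 42.3% of slopes were below 0. It had an unadjusted p below 0.05 for 5 of 7 Sm genes and an adjusted p below 0.05 for 0 of 7. Of all 10481 genes, 10.3% had both a negative slope and an unadjusted p below 0.05. Both a negative slope and an adjusted p below 0.05 were found for 2%. This slope was added after the data had been seen.

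The slope differed among the Sm genes. The steepest was -0.44 for Snrpd3 (SE 0.13), with an unadjusted p of 0.00692 and an adjusted p of 0.122. Snrpf had -0.39, Snrpg had -0.37, Snrpd1 had -0.35 and Snrpd2 had -0.34, with unadjusted p between 0.00218 and 0.00968. Snrpb and Snrpe had -0.15 and -0.07, with unadjusted p of 0.217 and 0.535. Gemin5 and Ddx20 had slopes of 0.33 and 0.34 with unadjusted p of 0.111 and 0.0987, and Gemin2 had -0.11. Without control brain library 1 the number of Sm genes with an unadjusted p below 0.05 was 3, and it was 5 without any other library.

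With library total as a covariate in a fit over all 12 libraries, the log2 fold change of spinal cord over brain in control was -0.65 for Snrpb (adjusted p = 0.0116) and -0.44 for Snrpg (adjusted p = 0.0275). The other 5 lay between -0.21 for Snrpd2 and -0.37 for Snrpe and were not called. Thus 2 of 7 had an adjusted p below 0.05, against 16.1% of all genes in either direction in that fit. In SMA, 4 of 7 did, against 29.7% in either direction: Snrpb at -0.59, Snrpg at -0.58, Snrpd1 at -0.46 and Snrpe at -0.39. Without the covariate, 18.1% of all genes were lower and 20.4% higher in control, and 17.2% lower and 19.5% higher in SMA. Each of the 7 kept a negative sign in both genotypes. In each genotype, the brain and spinal cord libraries nearest in depth were also set side by side. Control brain library 1 (9117017 counts) had an Sm sum of 797 CPM and control spinal cord library 3 (10315064 counts) had 579 CPM. SMA brain library 2 (5406430 counts) had 933 CPM and SMA spinal cord library 2 (5162190 counts) had 683 CPM. The log2 ratios of these pairs were -0.46 and -0.45, and each of the 7 Sm genes was lower in the spinal cord library of both pairs, which have no replicates at their depth. Ddx20 was lower as well, with log2 ratios of -0.40 and -0.70, while Gemin2 had 0.04 and 0.59 and Gemin5 had -0.02 and 0.03.

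**Figure D4:**
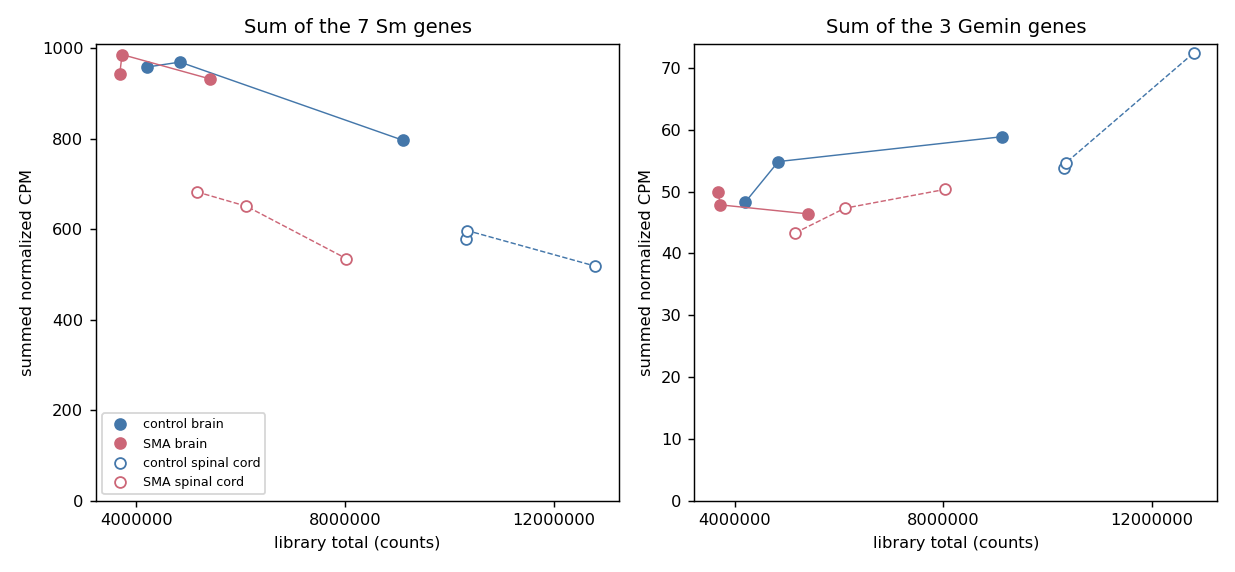
Summed normalized CPM of the 7 Sm genes (left, y axis) and of the 3 Gemin genes (right, y axis) against the library total in counts (x axis), with filled points and solid lines for brain, open points and dashed lines for spinal cord, blue for control and red for SMA. The Sm sum is lowest in the deepest library of every group, for example 797 CPM in control brain and 519 CPM in control spinal cord, and it is lower in spinal cord at a like depth.

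The same covariate touched the comparison of genotypes. In spinal cord every SMA library was shallower than every control library, at most 8027322 counts against at least 10315064. With the covariate, the Sm median in spinal cord was -0.16 in place of 0.12 and 5 of 7 Sm genes changed sign, none with an unadjusted p below 0.05. Gemin2 in brain was -0.64 with an unadjusted p of 0.00923, and Gemin5 in spinal cord was -0.13 with an unadjusted p of 0.578.

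Control spinal cord library 1 did not carry the tissue difference. Without it, 7 of 7 Sm genes had an adjusted p below 0.05 in control, with a median log2 fold change of -0.61. In that fit 1835 of all 10481 genes were lower at the same threshold. The control count was 5 of 7 without control brain library 3, and 6 of 7 without control brain library 2 or control spinal cord library 3. In SMA, without SMA brain library 1 the count was 3 of 7, and without SMA brain library 2 it was 4 of 7, with all 7 still lower. Shares of all genes without these other libraries are not given here, so fewer calls over the whole table cannot be told apart from fewer at the Sm genes.

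Markers of dividing cells differed between the tissues in the same direction as the Sm genes. The 4 named markers of progenitors and cycling cells (Nes, Top2a, Kif11 and Cdk1) had a median log2 fold change of spinal cord over brain of -1.26 in control and -2.14 in SMA, and 2 of 4 and 4 of 4 of them met an adjusted p below 0.05, as did 18.1% and 17.2% of all genes in the lower direction. Without control spinal cord library 1 the control median was -2.22 and 4 of 4 met it. Cdk1 lay between 92.1 and 126 CPM in brain and between 16.1 and 50.5 CPM in spinal cord. The neurofilament genes Nefl and Nefm, made by maturing neurons, were higher in spinal cord and met an adjusted p below 0.05 in both genotypes, as did 20.4% of all genes in control and 19.5% in SMA in the higher direction. Nefl lay between 47.1 and 76.7 CPM in brain and between 195 and 290.0 CPM in spinal cord. Map2, the only other neuron marker named, had log2 fold changes of -0.21 in control and -0.16 in SMA. The part of these markers in the Sm values was not tested.

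The remaining genes of the pathway were read from a list of 91, of which 22 could be paired with an identifier. The pairing used a list that the paper describes as genes dysregulated in its ribosome profiling. Which of the 91 could be named may therefore depend on these same data. No excess over the shares of all genes can be read from counts among the 22, here or in the comparisons below. In brain, 3 of 22 were lower and 1 was higher in SMA at an unadjusted p below 0.05, where 3.28% of all genes were lower and 1.77% higher. Wdr77, the subunit of the methylation complex that receives Sm proteins, had 92.6, 99.0 and 75.6 CPM in control and 71.6, 75.5 and 68.3 CPM in SMA. Its groups did not overlap, as for 7.18% of all genes in the lower direction, and its log2 fold change was -0.29 with an unadjusted p of 0.0283. Prpf31, a protein of the U4/U6 particle, had a log2 fold change of -0.26 with an unadjusted p of 0.0186. Zcrb1, of the minor spliceosome, had -0.31 with an unadjusted p of 0.0346, and Lsm2, of the Sm-like ring on U6, had 0.28 with an unadjusted p of 0.00753. None had an adjusted p below 0.05.

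In spinal cord, 2 of 22 were lower and 0 were higher in SMA at an unadjusted p below 0.05, where 3.26% of all genes were lower and 3.73% higher. Riok1, which links clients to the same methylation complex, had 106.6, 122 and 107.8 CPM in control and 82.9, 81.4 and 95.9 CPM in SMA. Its log2 fold change was -0.38 (SE 0.10), with an unadjusted p of 0.00595, an adjusted p of 0.684, and its groups did not overlap, as for 6.29% of all genes in the lower direction. Sf3a1, of the U2 particle, had a log2 fold change of -0.18 with an unadjusted p of 0.044. Without control spinal cord library 1, Riok1 had -0.42 with an unadjusted p of 0.00794 and Sf3a1 had -0.16 with an unadjusted p of 0.086.

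Between tissues, 7 of 22 were lower and 1 higher in control spinal cord at an adjusted p below 0.05, and 9 were lower and 0 higher in SMA. Of all genes, 18.1% and 17.2% were lower and 20.4% and 19.5% higher. Their medians were -0.18 and -0.27, smaller in size than those of the Sm genes. Among those called in both genotypes, Sart3, which recycles U4 and U6, had -0.60 in control and -0.59 in SMA. Kpnb1, the importin that carries snRNA particles into the nucleus, had -0.54 in both. Next in control came Sf3a1 at -0.36, and in SMA the U2 protein gene Snrpb2, at -0.57, stood between Sart3 and Kpnb1. The only one higher was Riok1 in control, at 0.47.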

How the data were processed

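Ribosome footprints of brain and spinal cord were counted in 12 libraries, 3 in each group, and every column was matched to its sample by label. The authors trimmed reads with cutadapt 4.1 per the labels, removed rRNA and tRNA reads, aligned the rest to GRCm38.p6 with STAR 2.5.3a while keeping reads with several alignments, and left out genes under their FPKM threshold. The deposited values are raw counts per gene, without normalization, and a gene length in bases. The counting tool, and whether counts precede the removal of reads at one position, are not given in the sources used here. Symbols of the 10 genes came with their identifiers. Symbols of all other genes, markers included, came from the part used here of the study's own list of dysregulated genes. That part names 1999 of 10481 genes, among them 3 of the 10. Only identifiers and names were read from it.

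Counts were tested in R 4.3.3 with edgeR 4.0.16 (TMM, glmQLFit and glmQLFTest, 2-sided, no filter, Benjamini-Hochberg adjustment over 10481 genes), each comparison on its 6 libraries and the interaction on all 12. Errors are the unshrunk log2 fold change over the square root of F, and intervals are 95%. Printed CPM values use TMM factors of all 12 libraries. Genotypes were called at the study's unadjusted p below 0.05 and tissues at an adjusted p below 0.05. With 3 against 3 the smallest exact permutation p is 0.1. The tests were checked on simulated data. The members, lists and tests were chosen with earlier results of these data known. All members were named, with listed pathway genes at an unadjusted p below 0.05 between genotypes and, between tissues, the 3 lower and 3 higher with the largest changes called in both genotypes. Riok1 in control spinal cord was named outside this rule.

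Deviations from the group means were correlated between brain and spinal cord libraries of the same replicate number (r of 0.345, 0.114 and 0.151 in SMA and 0.113, 0.0096 and 0.127 in control). These same-number values were all positive, while crossed numbers had both signs. In SMA the crossed values ran from -0.281 to 0.204, the highest for brain library 3 with spinal cord library 2. That value lay above the same-number values of 0.114 and 0.151 but below 0.345. In control the crossed values ran from -0.142 to 0.0269. Whether replicate number pairs the tissues is therefore not settled, and the labels give no pairing. Between genotypes, same-number values had both signs in each tissue. Alternatives were DESeq2 1.42.0, library size alone, upper-quartile factors, filterByExpr, robust dispersion, all 12 libraries in 1 fit, the replicate block, trends on counts per base and on length, and each library left out. Library total as a covariate, the slope on it, leaving out both spinal cord libraries numbered 1, and leaving out control spinal cord library 1 for the markers and other pathway genes were added after the data were seen. Plots were made with matplotlib 3.10.9.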

Additional observations from a re-analysis of the deposited data

Results flagged for a closer look

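Riok1 was the only named gene of the pathway whose log2 fold change of SMA differed between tissues at an unadjusted p below 0.05. The difference, spinal cord minus brain, was -0.49 (SE 0.19), with an unadjusted p of 0.0237 and an adjusted p of 1 with edgeR over all genes, and 2.38% of all genes had an unadjusted p below 0.05. None of the 10 Sm and Gemin genes did. Groups of 3 libraries are too small for a test of outlying samples.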

How the results depend on the processing

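With library total as a covariate, the Sm median log2 fold change of spinal cord over brain was -0.34 with 2 of 7 called in control and -0.39 with 4 of 7 called in SMA, and the Gemin median in SMA was -0.28. In the comparison of genotypes it gave -0.022 for Snrpb, -0.030 for Snrpd1, -0.18 for Snrpd3, -0.053 for Snrpg and a Gemin median of -0.067 in brain. In spinal cord it gave -0.16 for Snrpd1 and the Sm median, -0.054 for Snrpd2, -0.22 for Snrpd3, -0.23 for Snrpf, -0.19 for Snrpg and a Gemin median of -0.13. The trend on counts per base moved the control Sm median between tissues to -0.52, Snrpb in brain to -0.0038 and Snrpg in spinal cord to -0.015. Gemin5 in brain, at 0.00, was -0.023 with library size alone, -0.0012 with filterByExpr and -0.0032 with 1 fit over all 12 libraries. The call of Gemin2 in brain was lost with DESeq2 (0 of 3 Gemin genes). In spinal cord, 1 fit over all 12 libraries called 1 Gemin gene (Gemin5, with an unadjusted p of 0.0482). The cause of these changes was not tested.

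With the replicate block in the edgeR fit, 1 Sm gene was higher in SMA spinal cord (Snrpd2, with an unadjusted p of 0.0308). In the same fit 1 Gemin gene was lower (Gemin5, with an unadjusted p of 0.0135). Whether same-numbered control and SMA libraries were paired in any way is not given in the labels. The block changed no other call of the 10 genes. Shares of all genes called with the block, or with 1 fit over all 12 libraries, are not given here.

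Leaving out each library in turn gave these ranges between genotypes in brain: Sm genes called higher 0 to 1, Gemin genes called lower 0 to 1, Snrpd3 -0.062 to 0.11, Snrpg -0.022 to 0.22, Snrpf -0.17 to 0.049 and Gemin5 -0.10 to 0.14. In spinal cord they were Gemin genes called lower 0 to 1 (1 without control library 2 or without SMA library 1), Snrpd3 -0.029 to 0.32 and Snrpf -0.056 to 0.23. Between tissues, Ddx20 ranged from -0.26 to 0.045 in control. In SMA the Sm genes called lower ranged from 3 to 7, the Sm median from -0.68 to -0.40 and Gemin5 from -0.19 to 0.0078. The control count of Sm genes called lower ranged from 5 to 7. The Gemin median of the interaction ranged from -0.24 to 0.058, and Gemin5 in it from -0.53 to -0.20. The number of Sm slopes on library total with an unadjusted p below 0.05 ranged from 3 to 5, and their median from -0.42 to -0.30. The order of the 10 genes by level per length was the same with library size alone and with DESeq2 size factors. The planned order by coding length was not run, since no protein table was used here. Gemin2 rests on 21 to 142 counts in a library, which limits its precision.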
